A study of Mus musculus with 25 samples.

Results

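The change in RNA from the wild-type mouse MII oocyte to the wild-type PN3 zygote was described in 7 libraries, 3 of MII oocytes and 4 of PN3 zygotes, out of 25 libraries in the series. Both groups were wild type for Smarca4, the motor subunit of the BAF remodelling complex, whose deletion in the oocyte the series studies; the knockout libraries were not used. The MII oocyte is the ovulated egg, arrested in the second meiotic metaphase, and the PN3 zygote is the fertilised egg in which the parental genomes lie in separate pronuclei. Per the labels, superovulated females of 8 to 12 weeks, either B6D2F1 or Smarca4flox/flox with Gdf9-Cre on C57BL/6, gave the oocytes, which were meant for sperm injection. The titles of the 7 libraries say WT, but the sources used here do not say which strain is behind which library. No treatment is named for these groups beyond the hormones for superovulation. No label says that the libraries of a group come from different females. The p-values then measure no more than the spread among these libraries, and that spread may be technical.

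Genes were included by 1 rule: their FPKM had to reach 1 in 3 or more of the 7 libraries. FPKM counts fragments relative to the length of the transcript and the size of the library. The rule kept 9776 of 24412 gene symbols. A level below is a scaled FPKM, given per library in the order of the replicate numbers or as mean ± SD (n = 3 at MII, n = 4 at PN3), and a difference is PN3 minus MII in log2(scaled FPKM + 1), so the change of low genes is understated. A gene was called, and is said to have risen or fallen, at an adjusted p under 0.05 in limma with Benjamini-Hochberg adjustment over all 9776 genes. FPKM is relative to the rest of the library: the total RNA per egg was not seen, and less RNA per cell cannot be told apart from more of all other RNA. The files give no read counts, so the depth behind each value is unknown and no counting error can be given.

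The full-grown oocyte stores messenger RNA made during its growth and stops transcription before ovulation. Part of that store is given a longer poly(A) tail and translated at maturation and fertilisation, and part loses its tail and is degraded, with the CCR4-NOT deadenylase and its adaptor BTG4 among the known effectors. In the mouse the first, low transcription of the embryo's own genome, called minor zygotic genome activation, begins in the zygote, and the main wave follows at the 2-cell stage. The libraries were made from total RNA after removal of ribosomal RNA, per the labels' protocols.

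The libraries of each group resembled each other more than those of the other group. Across genes, Pearson's r was 0.996 between MII libraries, 0.986 to 0.993 between PN3 libraries and 0.950 to 0.962 between the stages. The median SD of a gene (log2) was 0.066 at MII and 0.126 at PN3. PN3 libraries 1 and 2 stood somewhat apart from 3 and 4, with r of 0.991 and 0.993 within these pairs and 0.986 to 0.989 across them. All 15 defining oocyte markers were among the genes tested, and the zygotes still held each of them, from 6.98 (Mos) to 819 (Dppa3) on average. Of 23 cumulus and granulosa markers 21 were below 1 in every library, with Cyp19a1 at 6.38 in the oocytes and 5.17 in the zygotes as the highest, and the list summed to 8.68 to 9.96 at MII and 7.23 to 9.03 at PN3. Of 29 sperm and testis markers 25 were below 1, and the list's sum, 73.7 ± 1.93 at MII and 88.2 ± 7.35 at PN3, was nearly all Odf2 (64.1 and 78.5), while the protamine Prm2 stood at 6.47 and 5.95. Blood and immune markers summed to 0.601 to 2.61 per library. The part of these cells in the results was not tested.

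Of the 9776 genes, 4878 (49.9%) were called, of which 2198 (22.5%) were higher and 2680 (27.4%) lower at PN3 (limma, adjusted p under 0.05). The difference lay in size more than in number. Among the genes called, 504 (5.16% of those tested) fell by at least 2-fold and 32 (0.327%) rose by as much; 66 fell and 3 rose by more than 4-fold. The median change of a gene that rose was 0.34 and of a gene that fell -0.53, with a median SE of 0.0874 over all genes. All PN3 libraries were above all MII libraries in 2444 genes (25%) and below them in 2843 (29.1%). Over all genes tested the median difference was -0.01. The genes called higher include 35 that were below an FPKM of 1 in every oocyte, 7 of them among the 32, and those called lower include 113 that were below 1 in every zygote, 25 of them among the 504. Such genes passed the filter through 1 stage alone and so had to differ. When the 6 wild-type 2-cell libraries were added to the fit, with all 13 libraries scaled together, 946 genes were called, all of them among the 4878. Of these 201 were higher and 745 lower, and 410 of the 504 large falls were kept. The 2-cell stages were kept out of the main fit because earlier results of these data showed a larger spread there. The wider fit includes that spread in its estimate. What part the added spread or the joint scaling has in the lost calls was not tested. Genes named in the text as called that this wider fit did not call are Oosp3, Nlrp4f, Zbed3, Rpl7l1, Ndufa10, Mrps22, Polr2i, Prim2, Pcna, Gmnn, Patl2, Mex3c, Btg4, Cnot8, Pan2, Cnot7, Btg1, Cnot10, Cdc25b, Cdc20, Pttg1, Ccnb1, Fbxo43, Cdk1, Tet3, Zfp57, Hist2h2aa1, Hist2h4, Hist2h2aa2, Hist1h1t, Hist1h2bc, Nasp, Snora31, Snora81, Snord42a, Rn45s, Usp17lc, Gm21312, Zscan4d, Tcstv1, Tcstv3, Dppa2, Arg2, Obox2, Obox5, Obox7, Sox15, Pou5f1, Figla, Nobox, Lhx8, Arid1a, Chd4, Kdm1a, Ldhb, Mphosph6, E330034G19Rik, Rfpl4, Bcl2l10, Omt2a, Omt2b, Actb, Gapdh, Rpl23, Chd8, Snora64, Snora65, Snord15a and Mir5133.

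**Figure D1:**
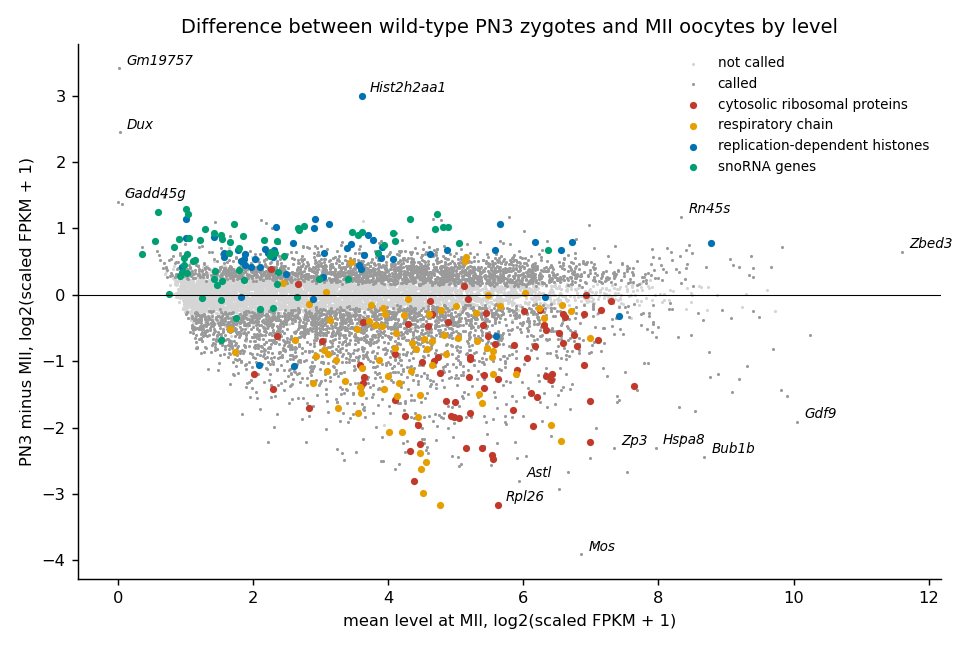
Each point is 1 of the 9776 genes tested; the x axis is the mean level at MII and the y axis PN3 minus MII, both in log2(scaled FPKM + 1), with 4 gene lists in colour. Large falls (down to -3.91 for Mos) occur over a wide range of levels, ribosomal protein and respiratory chain genes lie mostly below 0, and histone and snoRNA genes mostly above it.

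Falls of 2-fold or more were more frequent among abundant messages. They made up 1.23% of the lowest of 4 equal classes of oocyte level, then 4.91%, 6.91% and 7.57% of the following classes. Rises, most of them small, made up 12.4%, 17.3%, 26.1% and 34.1% in the same order. The classes were set by the MII level, which also enters the difference, and low genes have less power and damped log2 values, so this is a description. The size of the large falls also differed between the PN3 pairs: the median over the 504 genes was -1.49 and -1.55 in libraries 1 and 2 and -1.29 and -1.24 in libraries 3 and 4. In 292 of the 504 (57.9%) both of the first pair lay below both of the second, and in 34 (6.75%) above, against 29.0% and 23.1% of all genes tested.

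The largest fall was that of Mos, the kinase that holds the egg in metaphase II through the MAP kinase pathway. Mos (chromosome 4, 3870657 to 3872105, minus strand, GRCm38) stood at 110, 116 and 119 in the oocytes and at 4.13, 6.05, 8.17 and 9.58 in the zygotes. No zygote came near any oocyte, and the difference was -3.91 ± 0.20 (SE; limma adjusted p = 9.15e-07). Bub1b, which encodes the checkpoint kinase BUBR1, fell from 409 ± 9.76 to 78.6 ± 28.8, with PN3 libraries 1 and 2 (52.0 and 55.5) below libraries 3 and 4 (101 and 106). Without the first pair its difference was -1.97 and without the second -2.91. Among 56 tested genes of meiotic arrest and M phase 16 fell and 20 rose, near the background of all genes for the falls (27.4%) and above it for the rises (22.5%). Apart from Mos and Bub1b the falls were moderate, such as Anapc4, a subunit of the anaphase-promoting complex (-0.80), and Cdk1, the mitotic kinase (-0.36). Genes of M-phase entry and exit were among those that rose. Cks2, a CDK-binding subunit, went from 64.6, 54.2 and 71.6 to 119, 114, 126 and 135 (0.96 ± 0.09). The phosphatase gene Cdc25b (0.65), the APC/C activator Cdc20 (0.55), securin (Pttg1, 0.50), the APC/C inhibitor EMI2 that maintains the arrest (Fbxo43, 0.47) and cyclin B1 (Ccnb1, 0.37) rose as well. With all 13 wild-type libraries in the fit 4 M-phase genes were called lower and 2 higher.

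Of 12 tested genes of the egg coat and the oocyte's secreted factors 7 fell (5 by at least 2-fold) and 4 were not called. The remaining 1, the oocyte-secreted Oosp3, rose (0.29). Of all genes tested 27.4% fell (5.16% by at least 2-fold) and 22.5% rose. The zona pellucida is the glycoprotein coat laid down while the oocyte grows. Zp3 (chromosome 5, 135980099 to 135988624) stood at 159, 165 and 159 in the oocytes and at 31.2, 28.1, 32.3 and 35.2 in the zygotes, a difference of -2.31 ± 0.07 (limma adjusted p = 7.17e-08). Zp1 fell by 2.45 and Zp2 by 1.43, and for all of these zona genes the groups lay far apart. Gdf9, the growth factor that acts on the cumulus cells, was among the 5 most abundant messages of the oocyte. It measured 1025, 1061 and 1081 at MII and 243, 227, 334 and 334 at PN3 (-1.91 ± 0.13). Its partner Bmp15, which forms heterodimers with GDF9, stood at 404, 403 and 378 and then at 416, 447, 436 and 409. These groups did not overlap, but Bmp15 was not called (0.11 ± 0.05, limma adjusted p = 0.0844). Fgf8, another oocyte signal to the cumulus, fell by 1.48.

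Fertilisation genes of the egg surface and cortex showed a similar contrast. Astl encodes ovastacin, the cortical granule protease that cleaves ZP2 after fertilisation. Its message went from 57.4, 59.6 and 64.0 to 6.42, 5.86, 8.62 and 11.1 (-2.80 ± 0.17, limma adjusted p = 2.00e-06). Cd9, the tetraspanin needed for fusion with sperm, fell from 27.2 ± 0.865 to 11.9 ± 1.70 (-1.14), and Pde3a, the phosphodiesterase of meiotic arrest, fell by 0.62. Over the 19 tested genes of this list 5 fell and 5 rose, shares close to those of all genes. With all 13 wild-type libraries in the fit 3 were called lower and 0 higher.

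The subcortical maternal complex is an assembly of oocyte proteins under the egg membrane that embryos need for the first cleavages. Its 8 tested members split. Khdc3 (also called FILIA) fell from 100, 99.5 and 102 to 13, 12.4, 16.8 and 19, a difference of -2.66 ± 0.13 (limma adjusted p = 5.59e-07). Tle6 fell by 1.75, Nlrp2 by 1.71 and the peptidylarginine deiminase gene Padi6 by 1.27. For Tle6 the PN3 pairs differed (83.9 and 80.1 against 140 and 153), and the fall was -2.16 without libraries 3 and 4 and -1.33 without 1 and 2. A pair of core members was at nearly the same level in both stages: Nlrp5 (MATER), at 205 ± 4.51 and 196 ± 16.4, and Ooep, at 287 ± 27.0 and 304 ± 37.3, neither called with all libraries. Nlrp5 was called lower without PN3 libraries 3 and 4 (-0.18, adjusted p = 0.0126) and Ooep higher without 1 and 2 (0.23, adjusted p = 0.023). Zbed3 went the other way. It was the most abundant message of both stages, at 3137, 3070 and 3114 in the oocytes and 4873, 4737, 4861 and 4987 in the zygotes (0.65 ± 0.04), and Nlrp4f rose by 0.41. Zbed3 and Nlrp4f were not called with all 13 wild-type libraries in the fit. Nlrp14, an oocyte NLRP gene outside the list, fell from 433 ± 23.4 to 184 ± 18.9.

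**Figure D2:**
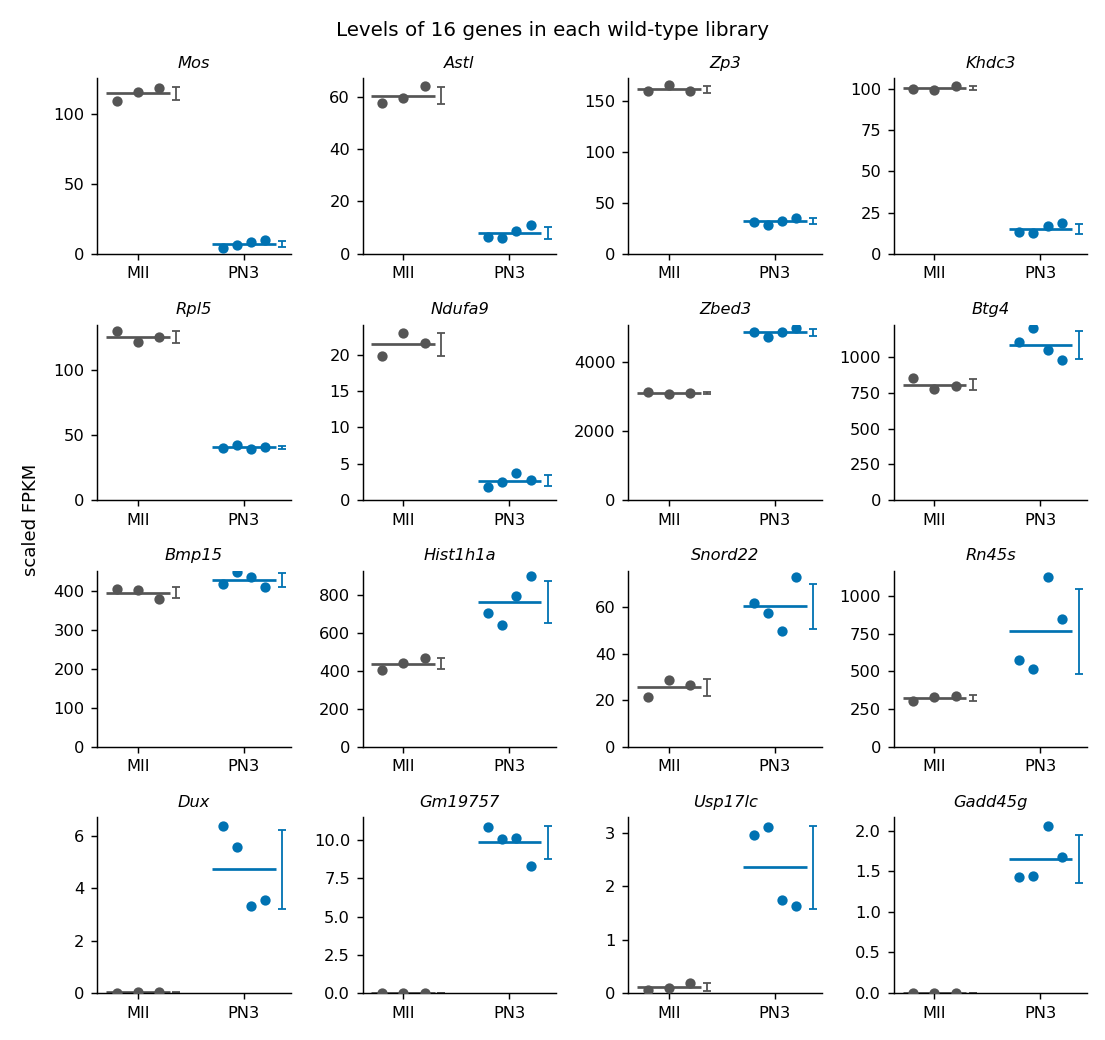
Each panel shows 1 gene, with scaled FPKM on a y axis that starts at 0, a point for each wild-type library (3 MII, 4 PN3), a bar for the mean and an error bar for the SD. Mos, Astl, Zp3, Khdc3, Rpl5 and Ndufa9 drop without overlap, Bmp15 stays within a narrow range, and Dux, Gm19757, Usp17lc and Gadd45g are at or near 0 in every oocyte.

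The remaining maternal effect genes mostly kept or gained share. H1foo, the oocyte linker histone, fell from 900, 970 and 1009 to 287, 270, 388 and 406 (-1.53 ± 0.14). Dppa3 (STELLA), which protects maternal DNA methylation, was not called, at 777 ± 52.7 and 819 ± 67.6 (0.07, limma adjusted p = 0.421), although without PN3 libraries 3 and 4 it was called higher (0.17, adjusted p = 0.0369). Omt2b (0.84), Omt2a (0.82), the ubiquitin ligase-like Rfpl4 (0.68) and the BCL2-family gene Bcl2l10 (0.46) rose. In all 12 of 26 tested members rose and 4 fell, against 22.5% and 27.4% of all genes; in the fit of 13 wild-type libraries 0 of them were called higher. Among oocyte transcription factors Figla (-0.73, or -0.48 without PN3 libraries 1 and 2), Lhx8 (-0.41) and Nobox (-0.35) fell, and Zfp57, a zinc finger protein that keeps imprints methylated, rose from 903 ± 24.3 to 1483 ± 43.4 (0.71 ± 0.04). Pou5f1 (OCT4) rose from 100 ± 3.52 to 153 ± 7.35. In the series' target gene, Smarca4, the 2 stages overlapped, at 27.6, 29.4 and 32.7 and then 32.2, 33.0, 33.5 and 36.4 (0.17, limma adjusted p = 0.0646); it was called higher without MII library 3 (0.24, adjusted p = 0.0302), without PN3 libraries 1 and 2 (0.23, adjusted p = 0.0238) and with TPM (0.19, adjusted p = 0.0413).

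Cytosolic ribosomal protein genes had the highest share of falls of the lists described here. Of 80 tested genes of cytosolic ribosomal proteins 70 fell, 41 of them by at least 2-fold, and 1, the ribosomal protein-like gene Rpl7l1, rose (0.39); the median difference was -1.03, against -0.01 for all genes and 27.4% of them called lower. Rpl5, a protein of the large subunit, stood at 130, 121 and 125 in the oocytes and at 39.7, 42.3, 39.2 and 41.0 in the zygotes (-1.60 ± 0.05, limma adjusted p = 7.17e-08). Rps20, of the small subunit, went from 31.0, 34.5 and 38.3 to 6.03, 6.05, 6.52 and 6.14 (-2.30 ± 0.08). In both genes the zygotes were far below the oocytes, but over the whole list the PN3 pairs differed: its median over MII was -1.23 and -1.32 in libraries 1 and 2 and -0.87 and -0.78 in libraries 3 and 4. The largest falls in the group were those of Rpl26 (-3.16) and Rpl18 (-2.80). In Rpl26, PN3 library 3 stood at 14.8 and the other zygotes at 2.73, 2.78 and 3.08, with oocytes at 53.2, 53.1 and 39.6; without libraries 1 and 2 its fall was not called (-2.61, adjusted p = 0.0602). Many ribosomal protein genes have near-identical pseudogenes, and how reads shared with them were assigned was not stated in the sources used here. Summed over the 84 genes in the files, the level went from 4098, 4243 and 4313 to 2209, 2035, 2442 and 2670, which is 0.554 of the oocyte mean (exact two-sided permutation p = 0.0571, the smallest that 3 against 4 libraries allow, and 0.0714 after Benjamini-Hochberg adjustment over 10 sums). With all 13 wild-type libraries in the fit 37 of these genes were called lower.

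Nuclear genes of the mitochondrial respiratory chain fell in the same way. Over all genes 27.4% fell, 5.16% by at least 2-fold, and 22.5% rose, with a median of -0.01. Of the 79 respiratory chain genes tested 61 fell, 29 of them by at least 2-fold, and 3 rose, with a median of -0.81. Cox7c, a small subunit of cytochrome c oxidase, had the largest fall (-3.16 ± 0.28), from 24.9, 26.3 and 27.5 to 0.909, 1.39, 2.84 and 3.93. Uqcr11 of complex III fell by 2.98 and Ndufa9 of complex I by 2.62, and Atp5o of the ATP synthase was lower by a difference of -2.53. The exceptions included Cox8a, which rose from 34.4 ± 1.51 to 51.6 ± 4.65 (0.57), and Ndufa10, which rose by 0.51. As a sum the list went to 0.621 of its oocyte level (2174 ± 19.2 to 1349 ± 131). Mitochondrial ribosomal protein genes also leaned downward, with 42 of 76 lower (17 by at least 2-fold), 4 higher and a median of -0.32; Mrpl42 fell by 1.79 and Mrps22 by 1.40, while Mrpl3 rose by 0.46. The fit of 13 wild-type libraries called 25 respiratory chain genes and 12 mitochondrial ribosomal genes lower. Transcripts of the mitochondrial genome itself were not analysed here.

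**Figure D3:**
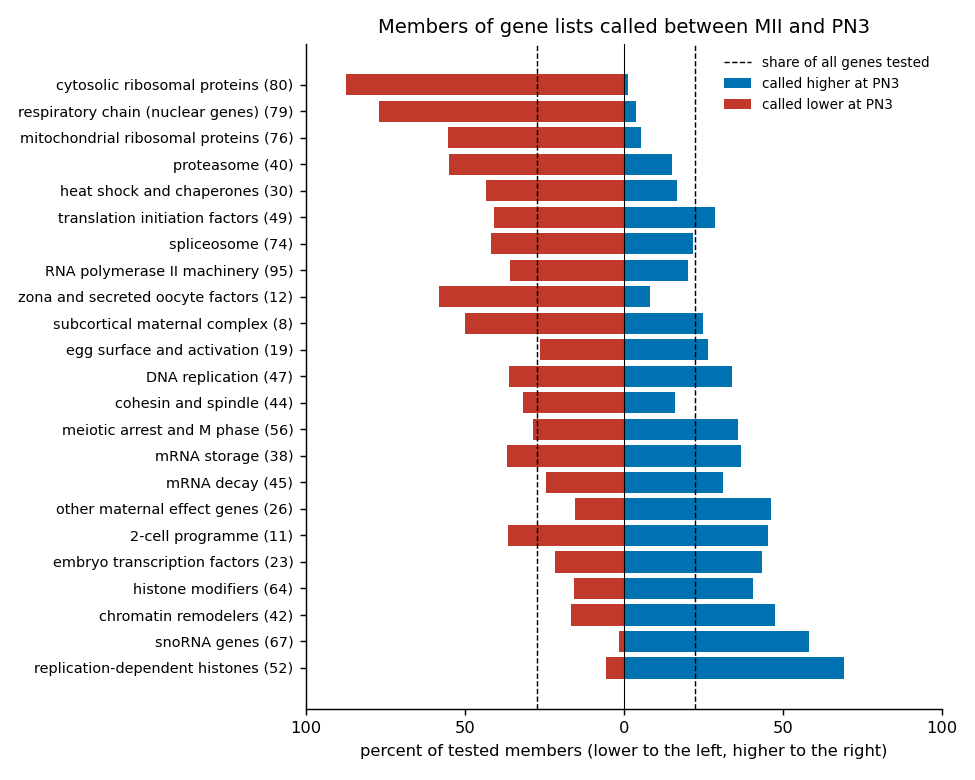
Bars give the percent of tested members (number in brackets) of 23 gene lists called lower (left) or higher (right) at PN3 in limma at an adjusted p under 0.05; dashed lines mark the same for all genes tested, 27.4% and 22.5%. Cytosolic ribosomal protein and respiratory chain lists reach furthest to the left and snoRNA and histone lists furthest to the right.

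Other housekeeping machines had fewer falls and more rises, to be read against 27.4% lower and 22.5% higher among all genes. Of 40 proteasome genes 22 fell and 6 rose (median -0.24): Psmb1 (-1.85) and Psma5 (-1.80) of the catalytic core fell, while the activator gene Psme3 rose from 85.5 ± 2.60 to 112 ± 2.41. Without any single MII library 3 proteasome genes, not 6, were called higher. Among 30 chaperone genes 13 fell and 5 rose. Hspa8, the constitutive HSC70 chaperone, went from 260, 238 and 246 to 40.0, 40.5, 62.1 and 59.8 (-2.30 ± 0.15), and Cct5 (-1.61) and Tcp1 (-1.20) of the cytosolic chaperonin fell too. The 5 chaperone genes that rose became 3 without any 1 of the MII libraries or without PN3 library 1. Of 49 translation initiation factors 20 fell and 14 rose, with Eif3l (-2.45) and Eif3g (-1.62) among the falls. Of 74 spliceosome genes 31 fell and 16 rose; Lsm4, of the ring that binds U6, fell from 8.95 ± 0.476 to 0.981 ± 0.611. In the RNA polymerase II machinery 34 of 95 fell, among them the polymerase subunit Polr2i (-1.84) and the Mediator subunit Med7 (-1.25), and 19 rose, or 12 without MII library 2. The rises among spliceosome and polymerase II genes were no more frequent than among all genes. The fit of 13 wild-type libraries called 8 proteasome, 4 chaperone, 8 initiation factor, 10 spliceosome and 13 polymerase II genes lower, and 1, 0, 1, 2 and 2 higher.

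DNA replication and chromosome genes were divided. Replication genes had 17 falls and 16 rises among 47, against 27.4% and 22.5% of all genes. The falls were larger, with Tyms, thymidylate synthase, going from 5.84, 6.14 and 6.15 to 1.13, 0.931, 1.74 and 1.13 (-1.67), and with Pole, of the leading-strand polymerase (-1.35), and the primase subunit Prim2 (-1.28). The sliding clamp gene Pcna rose by 0.35, the licensing inhibitor gene Gmnn by 0.38 and the origin factor gene Mcm10 by 0.42. Smc3, a core subunit of cohesin, fell from 87.5, 87.1 and 88.5 to 28.5, 29.2, 26.6 and 25.0 (-1.65 ± 0.06), with zygotes and oocytes each in a narrow range. The condensin gene Smc4 fell by 1.03, and here PN3 libraries 1 and 2 (126 and 140) were the higher pair and 3 and 4 (96.1 and 89.4) the lower. The tubulin gene Tuba1b fell by 1.77. In the list of cohesin, kinetochore and spindle genes 14 of 44 fell and 7 rose; the rises were 4 without MII library 1 and 3 without library 2. In the fit of 13 wild-type libraries 3 replication genes were called lower and 2 higher, and 6 and 0 of the chromosome and spindle genes.

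Genes that store and clear maternal RNA changed in both directions. Zar1, which binds stored messages in the oocyte, fell from 522, 559 and 543 to 175, 151, 220 and 254 (-1.46 ± 0.15). The poly(A) polymerase gene Papola fell by 1.01, the poly(A)-binding protein gene Pabpc1 by 0.94, Lsm14b by 0.87, Patl2 by 0.59 and Cpeb1, which binds the cytoplasmic polyadenylation element, by 0.56. Ybx1, a general RNA-packaging protein, rose from 164 ± 3.92 to 273 ± 16.9 (0.73), and Mex3c (0.74) and the decapping co-factor gene Patl1 (0.70) rose. Among all genes 22.5% rose and 27.4% fell. Of 38 storage genes 14 fell and 14 rose, with 9 rises when MII library 2 or 3 was left out. In the decay list 14 of 45 rose and 11 fell, not far from the shares of all genes. Btg4, among the 5 most abundant messages of the zygote, measured 854, 776 and 797 and then 1105, 1205, 1048 and 978 (0.42 ± 0.07, limma adjusted p = 9.77e-04). The deadenylase gene Pan2 rose by 0.60. The catalytic CCR4-NOT genes Cnot8 (0.65) and Cnot7 (0.28) rose, but Cnot8 was not called without MII library 2 (adjusted p = 0.063) and Cnot7 neither without MII library 2 (0.087) nor 3 (0.0558). The rise of Cnot8 was 0.34 without PN3 libraries 3 and 4. Cnot6l, another catalytic subunit, overlapped between the stages (0.18, limma adjusted p = 0.129). It was called higher with a replicate block (0.24, adjusted p = 0.0217), without PN3 library 4 (0.24, adjusted p = 0.0275) and without PN3 libraries 3 and 4 (0.27, adjusted p = 0.0251). The scaffold gene Cnot1 fell by 0.58, Cnot10 by 0.73 and Btg1, a relative of Btg4, by 1.04. Rises in the decay list numbered 7 without MII library 2, 8 without MII library 3 and 1 in the fit of 13 wild-type libraries, where 3 decay genes were called lower, and 6 storage genes lower and 2 higher.

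Most replication-dependent histone genes tested rose. These genes supply the bulk histones of S phase, and their messages end in a stem-loop instead of a poly(A) tail. Of 52 tested, 36 rose, 7 of them by at least 2-fold, 3 fell and 13 were not called, against 22.5% higher and 27.4% lower among all genes, with a median of 0.62. Hist1h1a, a linker histone gene (chromosome 13, 23763666 to 23764406), went from 405, 444 and 465 to 707, 643, 794 and 901 (0.79 ± 0.10, limma adjusted p = 2.41e-04). Hist1h3f, an H3 gene, went from 44.5, 47.9 and 55.9 to 102, 82.8, 105 and 135 (1.07 ± 0.14), and Hist2h4, an H4 gene, from 1.01 ± 0.163 to 3.44 ± 0.439 (1.14). In each of these every zygote exceeded every oocyte. The largest value, that of Hist2h2aa1 (3.0 ± 0.41), is uncertain, because its near-identical neighbour Hist2h2aa2 was called in the opposite direction (-1.08) with overlapping groups, a call lost without MII library 1 (adjusted p = 0.0867) or 2 (0.0694), and reads of such copies may be split between them. Hist1h1t, a testis-type H1, fell by 1.06 (-0.68 without PN3 libraries 1 and 2) and Hist1h2bc by 0.61. Without PN3 libraries 3 and 4 Hist2h2aa1 was not called (adjusted p = 0.0511). Nasp, a chaperone for H3 and linker histones, rose by 0.40. The histone sum was 1399 ± 59.4 in the oocytes and 2227 ± 439 in the zygotes, 1.59 times higher (exact two-sided permutation p = 0.0571, adjusted 0.0714). The rise differed along the PN3 pairs: the list median over MII was 0.59 and 0.24 in libraries 1 and 2 and 0.70 and 0.94 in libraries 3 and 4. Without libraries 3 and 4, 23 histone genes were called higher, and with all 13 wild-type libraries in the fit 12.

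Promoters of these histone genes are shown because most of the group rose and because histone promoters are known for TATA and CCAAT boxes. The 150 bases before the RefSeq start (GRCm38.p6) follow for Hist1h1a (chr13:23763518-23763667, plus strand) and Hist3h2a (chr11:58954535-58954684, plus strand), an H2A gene that rose by 0.62. Capitals mark TATAAA and CCAAT on either strand (TTTATA and ATTGG when read from the other strand).
Hist1h1a: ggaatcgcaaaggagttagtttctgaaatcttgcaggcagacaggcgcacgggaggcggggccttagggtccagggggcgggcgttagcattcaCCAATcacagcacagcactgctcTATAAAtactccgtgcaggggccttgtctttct
Hist3h2a: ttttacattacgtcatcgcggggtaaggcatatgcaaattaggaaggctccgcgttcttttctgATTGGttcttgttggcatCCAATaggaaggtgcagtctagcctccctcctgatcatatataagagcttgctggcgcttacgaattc
Of the 36 histone genes that rose 32 had a RefSeq promoter. A CCAAT was present in 29 of them (90.6%) and a TATAAA in 9 (28.1%). Among the 7850 tested genes with a promoter in the table these shares were 29.8% and 3.21%, and among all 27025 promoters 25.3% and 8.08%. Promoters of the histone genes that did not rise were not counted, so these shares cannot be tied to the rise. A match describes the letters only.

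Most small nucleolar RNA genes tested rose too. SnoRNAs guide the chemical modification of ribosomal RNA and are mostly cut from introns of other genes. Of 67 tested snoRNA, Cajal body RNA and minor spliceosomal RNA genes 39 rose, 9 of them by at least 2-fold, and 1 fell. The shares over all genes were 22.5% higher (0.327% by at least 2-fold) and 27.4% lower. The list had a median of 0.67, and 3 of the 39 were below an FPKM of 1 in every oocyte. The list median over MII differed between the zygotes, at 0.28, 0.56, 0.71 and 1.01 in PN3 libraries 1 to 4. Snord22 stood at 21.3, 28.6 and 26.4 in the oocytes and at 61.6, 57.5, 49.6 and 72.9 in the zygotes (1.21 ± 0.13, limma adjusted p = 7.24e-05). Snora21 went from 15.2, 20.8 and 21.4 to 46.3, 39.0, 37.1 and 50.8 (1.14 ± 0.14). Snord8 (1.30), Snora31 (1.25), the Cajal body RNA gene Scarna6 (1.02) and Snora81 (0.91) rose as well. Only Snord42a was called lower (-0.68), with overlapping groups, and that call was lost without any 1 of MII libraries 1 (adjusted p = 0.0919) and 2 (0.149) and PN3 libraries 1 (0.0616) and 3 (0.0732). The list summed to 474 ± 29.6 in the oocytes and 872 ± 134 in the zygotes, 1.84 times the oocyte level. The RNAs are short against reads of 150 bases, FPKM divides by that short length, and the sources used here do not say whether fragments of host introns were counted. With a minimum FPKM of 5 fewer members were tested and 20 were called higher, and the fit of 13 wild-type libraries called 7.

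Both RNAs below carry a marker of their class, shown in capitals and read from GRCm38: the D box CTGA near the 3′ end of the C/D-type Snord22 (chr19:8725866-8725991, plus strand), and the ACA 3 bases before the end of the H/ACA-type Snora21 (chr11:97781639-97781775, minus strand).
Snord22: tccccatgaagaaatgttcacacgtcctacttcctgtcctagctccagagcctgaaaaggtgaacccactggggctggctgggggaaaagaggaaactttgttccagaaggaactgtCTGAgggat
Snora21: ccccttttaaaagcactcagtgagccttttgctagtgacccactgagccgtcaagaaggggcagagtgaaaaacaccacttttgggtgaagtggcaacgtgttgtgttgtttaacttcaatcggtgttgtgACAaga
Snora21 lies in an intron of Rpl23, which fell by 0.96. Of the 39 that rose, 29 lie within a gene that was tested, in 27 different hosts, of which 13 fell, 9 were not called and 5 rose. Snora65 rose by 0.94 inside Rpl12, which fell by 1.61, Snora64 by 0.95 (not called without PN3 libraries 3 and 4, adjusted p = 0.0822) inside Rps2, which fell by 1.26, and Snord15a by 0.94 inside Rps3, which fell by 1.42. Snord22 lies in the non-coding host Snhg1 (0.18, not called), and the host of Snord8, Chd8, rose (0.36). These hosts were looked up after the snoRNA values were seen. Snora65, Snora64 and Snord15a are examples in hosts that fell, picked after the values of both were seen.

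Other RNAs of the nucleolus and of RNA polymerase III were among the 15 largest rises. Rn45s, the precursor of ribosomal RNA, measured 303, 330 and 337 in the oocytes and 576, 516, 1127 and 848 in the zygotes (1.17 ± 0.23, limma adjusted p = 0.00216). Every zygote was above every oocyte, but the rise was 1.6 without PN3 libraries 1 and 2 and 0.75 without 3 and 4. As ribosomal RNA was depleted before sequencing, its level also depends on that step. Rmrp, the RNA of the RNase MRP that cuts the precursor, went from 0.455, 0.594 and 0.796 to 4.65, 3.50, 1.98 and 4.22 (1.47 ± 0.20); as it was below 1 in every oocyte, it passed the filter through the zygotes alone and had to differ. Vaultrc5, a vault RNA gene, went from 54.4 ± 0.611 to 125 ± 25.0 (1.17 ± 0.13).

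Genes at or near 0 in the oocytes and present in the zygotes were few. With a limit of 0.1 in every MII library and 1 in every PN3 library, 3 genes were found: Dux, Gm19757 and Gadd45g. This limit was chosen after the values were seen, and such genes passed the filter only through the zygotes, so that they had to differ. Dux encodes the homeobox factor that activates the genes and the MERVL repeats of the 2-cell stage. It stood at 0, 0.0342 and 0.0264 in the oocytes and at 6.39, 5.59, 3.34 and 3.56 in the zygotes (2.45 ± 0.18, limma adjusted p = 6.72e-06). Gm19757 (chromosome 6, 105481266 to 105492668, minus strand), a predicted gene, had the largest rise of all, from at most 0.0169 to 10.8, 10.1, 10.2 and 8.30 (3.41 ± 0.10, limma adjusted p = 5.09e-08). Gadd45g, a stress-induced gene of the GADD45 family, was listed at 0 in every oocyte and at 1.44, 1.44, 2.06 and 1.68 in the zygotes. In Dux the PN3 pairs differed again, here with libraries 1 and 2 the higher. The reverse pattern was found in Fam25c and in Rps27rt, a retrotransposed relative of Rps27, both listed at 0 in every zygote and at 1.91 to 3.90 and 3.07 to 4.27 in the oocytes.

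Usp17lc, a deubiquitinase gene of a multigene family expressed at the 2-cell stage, went from 0.0516, 0.0991 and 0.186 to 2.95, 3.10, 1.74 and 1.62 (1.56 ± 0.17), and Gm21312 from at most 0.144 to 2.62, 2.84, 0.872 and 1.05 (1.37). Both passed the filter through the zygotes alone, so that they too had to differ. Reads shared with near-identical family members may be split among them. Promoters of 3 of these genes, at or near 0 in the oocytes and with a RefSeq entry, are printed to show what they hold (150 bases before the start, GRCm38.p6, capitals as for the histones): Gm19757 (chr6:105492669-105492818, minus strand), Usp17lc (chr7:103416546-103416695, plus strand) and Gadd45g (chr13:51846525-51846674, plus strand).
Gm19757: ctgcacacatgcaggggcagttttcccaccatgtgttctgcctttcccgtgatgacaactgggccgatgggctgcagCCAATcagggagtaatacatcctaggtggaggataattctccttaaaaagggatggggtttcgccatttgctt
Usp17lc: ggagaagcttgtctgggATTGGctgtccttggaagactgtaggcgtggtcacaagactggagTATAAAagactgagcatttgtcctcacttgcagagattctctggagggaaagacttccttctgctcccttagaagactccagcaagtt
Gadd45g: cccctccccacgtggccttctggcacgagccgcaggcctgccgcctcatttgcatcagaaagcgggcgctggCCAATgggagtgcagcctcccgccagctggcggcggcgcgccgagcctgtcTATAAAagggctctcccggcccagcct
Of the 32 genes that rose by at least 2-fold, 13 had a RefSeq promoter. A CCAAT was held by 9 of these (69.2%) and a TATAAA by 4 (30.8%), against 29.8% and 3.21% of tested genes with a promoter. Some of the 13 are histone genes, and the shares without them were not counted.

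Most genes of the wider 2-cell programme did not pass the filter. Of 61 genes of this list in the files 11 passed, 5 rose and 4 fell, against 22.5% and 27.4% of all genes. Dux and Usp17lc, among the 5, passed through the zygotes alone. Without a filter 8 genes of the list were called higher. With a minimum FPKM of 5 there were 2, and in the fit of 13 wild-type libraries 2. Zscan4d, a telomere-linked zinc finger gene, went from 0.705, 1.03 and 0.951 to 2.04, 2.07, 1.93 and 1.70 (0.63 ± 0.10), and Sp110 rose by 0.47. Tcstv1 fell from 21.6 ± 2.77 to 12.8 ± 1.15 (-0.71), Tcstv3 by 0.48, Dppa2, an upstream activator of Dux, by 0.39 (-0.24 without PN3 libraries 3 and 4) and Arg2 by 0.24. Zfp352, below the filter, was listed at 0, 0 and 0.0417 and then at 0.658, 0.893, 0.455 and 0.109. When either PN3 pair was left out, Dux and Usp17lc no longer met the filter and 2 or 3 genes of the list were called higher. Obox homeobox genes, a family expressed in oocytes and early embryos, moved little: Obox2 fell from 539 ± 28.1 to 424 ± 25.2 (-0.35), Obox1 was not called (0.10), and the small rises of Obox7 (0.25) and Obox5 (0.17) were each lost without any 1 of the MII libraries and of PN3 libraries 1 and 2 (adjusted p from 0.0512 to 0.132 and from 0.0661 to 0.163), and that of Obox5 also without PN3 library 3 (0.0933). Without PN3 libraries 1 and 2 Obox7 was not called (0.13), and without 3 and 4 it was higher by 0.37. Obox3 was below 1 in every library. Among transcription factors of the preimplantation embryo 10 of 23 rose and 5 fell (22.5% and 27.4% of all genes). Klf17 rose from 131 ± 2.93 to 214 ± 13.1 (0.70 ± 0.06), Atf4 by 0.42 and Yap1 by 0.36, while Nfya, a subunit of the factor that binds CCAAT boxes, fell from 132 ± 3.77 to 80.0 ± 5.46 (-0.71) and Sox15 by 0.91. The fit of 13 wild-type libraries called 4 of these factors higher and 1 lower.

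Chromatin genes leaned upward by small amounts. Among all genes 22.5% rose and 27.4% fell. Of 42 remodeler genes 20 rose and 7 fell, with the BAF subunit gene Arid1a (0.49) and the NuRD ATPase gene Chd4 (0.53) among the rises and the BAF core gene Smarcb1 (-0.58) among the falls; in the fit of 13 wild-type libraries 0 rose and 1 fell. Of 64 histone modifier genes 26 rose and 10 fell, or 3 and 3 in that fit. The acetyltransferase gene Kat6b rose by 0.61 and the demethylase gene Kdm1a by 0.47, whereas Kat8, the H4K16 acetyltransferase, fell from 79.4 ± 4.21 to 34.6 ± 3.10 (-1.18) and the H3K9 methyltransferase gene Suv39h1 by 1.08. The falls in that list numbered 6 without MII library 1 or 2. In DNA methylation, the maintenance enzyme gene Dnmt1 fell from 404 ± 10.1 to 311 ± 37.7 (-0.38), Dnmt3l by 0.52 and Trim28, the co-repressor that ZFP57 recruits, by 0.88, and Dnmt3a rose by 0.43. Trim28 stood at 36.8, 37.4 and 39.2 and then at 16.8, 14.2, 25.3 and 27.1, so that the PN3 pairs differed: without libraries 1 and 2 it fell by 0.51 and Dnmt1 by 0.23, and without 3 and 4 by 1.24 and 0.53. Tet3, the dioxygenase active on the paternal genome, was near the threshold (0.16, limma adjusted p = 0.0341) and was not called without any 1 of the MII libraries (adjusted p = 0.0537, 0.151 and 0.0689) or PN3 libraries 3 (0.0799) and 4 (0.0645), nor without both of the latter (0.13). Actb (0.32) and Gapdh (0.29), often used as references, both rose.

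The genes that fell most had short 3′ untranslated regions, a feature the choice of genes did not use. For each gene the GENCODE M21 transcript with the longest coding sequence was taken. The median 3′ untranslated region was 913 bases over 9085 tested coding genes, 1043 in genes that rose, 609 in genes that fell, 287 in 484 genes that fell by at least 2-fold and 204 in 62 that fell by at least 4-fold. In 294 genes that rose by at least 0.5 (log2) it was 829, below that of all genes, and their coding median of 1095 bases was near that of the large falls. Ribosomal protein and respiratory chain genes have short regions, but without them the median of the 2-fold falls was still 393 bases over 397 genes. Coding lengths differed less, with medians of 1434 bases over all, 1539 in the rises and 1056 in the 2-fold falls (1251 without ribosomal protein and respiratory chain genes). A cytoplasmic polyadenylation element, searched on the transcript's strand as TTTTAT or TTTTAAT in the last 100 bases, was present in 20.3% of all genes with a region that long, 22.4% of the rises and 22.5% of the 2-fold falls, and in 34.1% of only 44 genes with 4-fold falls. FPKM divides by an annotated length, and the oocyte's own transcript ends were not measured, so the part of length in the differences was not tested.

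**Figure D4:**
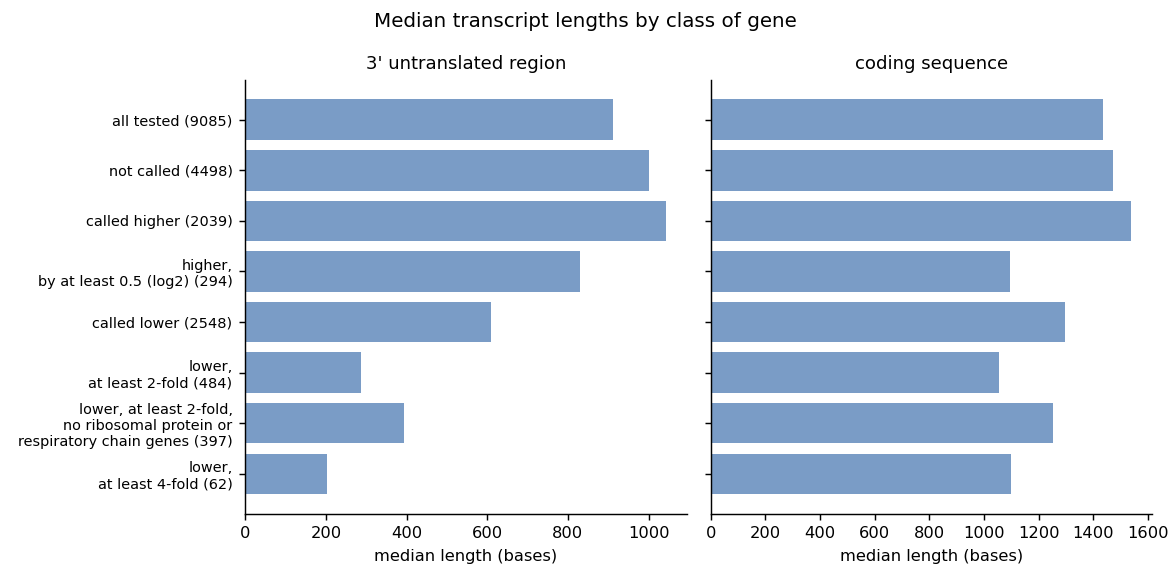
Bars give the median length in bases of the 3′ untranslated region (left) and of the coding sequence (right) for classes of tested genes, with the number of genes in brackets. The region has a median of 1043 bases in all genes called higher, 829 in those higher by at least 0.5 (log2) and 204 in genes that fell by at least 4-fold; coding medians lie between 1056 and 1539 bases and are low in the larger changes of both directions.

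The later wild-type stages show where these groups stood afterwards, as levels with no test, after the 13 wild-type libraries had been scaled together. Cytosolic ribosomal protein genes summed to 3826 to 4017 at MII, 1886 to 2433 at PN3, 1451 to 1748 in the early 2-cell embryo and 5939 to 10117 in the late 2-cell embryo. Respiratory chain sums were 2016 to 2045, 1119 to 1381, 868 to 968 and 1158 to 1509, and mitochondrial ribosomal protein sums 1295 to 1324, 886 to 990, 529 to 566 and 592 to 1092, so both remained below the oocyte level in the late 2-cell embryo, unlike the cytosolic list. Histone sums were 1242 to 1337, 1581 to 2523, 3567 to 5602 and 4363 to 4814 in the same order, and snoRNA sums 412 to 465, 730 to 977, 1919 to 4371 and 2836 to 5569. The median level of the 504 large falls was 16.2 to 16.4 at MII, 4.21 to 5.44 at PN3, 1.79 to 3.36 in the early and 6.32 to 9.97 in the late 2-cell embryo. Individual members differed. Mos stayed low, at 1.73 to 3.74 and 2.28 to 4.01 at the 2-cell stages, whereas Hspa8 stood at 137 to 145 in the late 2-cell embryo after 18.1 to 34.9 in the early one. Zbed3 measured 7105 to 8367 in the early and 1310 to 3370 in the late 2-cell embryo. Dux stood at 10.8 to 17.8 in the early and at 0.453 to 1.56 in the late 2-cell embryo, and Usp17lc at 37.2 to 52.5 and 15.5 to 115. Gadd45g was listed at 0 in 4 of the 6 2-cell libraries, and Gm19757 lay between 2.85 and 15.3 in all of them.

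**Figure D5:**
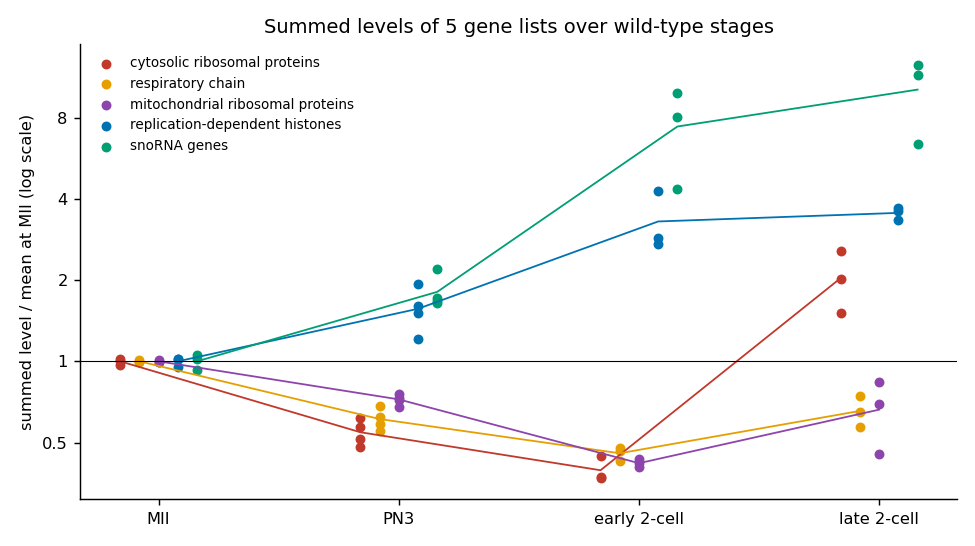
Points give the summed level of 5 gene lists in each of 13 wild-type libraries, divided by the list's mean at MII, on a log scale; lines join the stage means. Cytosolic ribosomal protein sums are below the MII level at PN3 and in the early 2-cell embryo and above it in the late one, respiratory chain and mitochondrial ribosomal protein sums are below it at every later stage, and histone and snoRNA sums are above it from PN3 on.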

How the data were processed

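RNA libraries of total RNA depleted of ribosomal RNA (stranded kit, read in pairs of 150 bases) were analysed, per the labels' protocols. The authors deposited 1 FPKM value per gene symbol and library; per the submitters' processing notes Trim Galore 0.4.5, HISAT2, StringTie and HTSeq were used, with builds mm10 and GRCm38 and no role or order. The FPKM columns sum to 235432 to 252440, with 15060 to 16698 genes above 0 per library.

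Each library was divided by its median ratio to a geometric-mean reference, taken from 8784 genes that reach FPKM 1 in all 7. log2(scaled FPKM + 1) was fitted with limma 3.58.1 (R 4.3.3; variance trend, robust) without a replicate block. No label says that a replicate number is shared between the stages. Same-numbered libraries did not deviate together (r = 0.07, -0.02 and -0.03). The largest r of MII libraries 1, 2 and 3 with a PN3 library of another number was 0.20, 0.18 and 0.23. Sums were compared by exact permutation over 35 arrangements (scipy 1.17.1). On simulated data (9776 genes, 200 changed, 5 simulations) 94.8% of changes of 1 (log2) and 71.2% of 0.5 were recovered, with 4.71% false calls. The simulated libraries varied independently, without the PN3 pairs, and far fewer genes changed than the 4878 called in the data. These rates may therefore not hold for the data.

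The comparison and the 41 gene lists were chosen with earlier results of these data known. Genes were named by rule: the 15 largest changes each way with non-overlapping groups, up to 6 called members per list and direction (all for some lists), watch genes, and the 5 most abundant. A gene among the largest changes is not reported here. Ooep, Obox1, Fam25c, Rps27rt, Snora64, Snora65, Snord15a and the snoRNA hosts were named after their values were seen. RefSeq promoters matched by symbol (7850 of 9776). A few date-like symbols could not be tied to a gene name. Mitochondria-encoded genes had 0 members.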

Additional observations from a re-analysis of the deposited data

Results flagged for a closer look

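Of 176 groups of 4 PN3 values tested (levels of named genes and list sums), 5 had 1 library standing off the other 3 by more than Dixon's 95% limit for the gap as a share of the range; chance gives about 1 in 20. Rpl26 was at 14.85 in PN3 library 3 and at 2.73 to 3.08 in the others. Patl2 was highest at 7.265, with the others at 6.34 to 6.43, and Nasp highest at 277.1, with the others at 237.5 to 242.2. Pcna was lowest at 65.43, with the others at 67.9 to 68.3. The snoRNA sum was highest at 1072 in PN3 library 4, with the others at 793 to 817.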

How the results depend on the processing

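The number of genes that rose by at least 2-fold, 32, was 61 with a pseudocount of 0.1, 56 with TPM, 21 with a minimum FPKM of 5, 15 in the fit of 13 wild-type libraries and 14 without PN3 libraries 3 and 4. That fit of 13 gave 946 calls, 201 higher and 745 lower. The other alternatives kept the counts of calls within 1.5 times. Leaving out 1 library gave 3674 to 4945 calls, 1578 to 2270 higher and 2096 to 2740 lower, and 505 to 570 by at least 2-fold, 23 to 36 higher and 470 to 547 lower. A replicate block gave 4870 calls, 2151 higher and 2719 lower, with 4477 shared; it lost the calls of Rpl26, Snora64, Tet3, Hist2h2aa1 and Hist2h2aa2 and gained that of Cnot6l. With FPKM as deposited 38.8% of calls were higher, with scaling 45.1%. Among 164 named genes 69 lost their call in the fit of 13 libraries. The sign turned in uncalled genes only: Nlrp5 (0.0338) and Dppa3 (-0.0136) without PN3 libraries 1 and 2, and Ooep (-0.0672) without 3 and 4. Leaving out pairs of PN3 libraries was chosen after seeing the data. Unknown depth limits low genes most.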

Other observations

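Solute carrier genes and genes of the germ-cell small RNA pathway, not described above, had more falls than rises: 56 of 136 tested solute carrier genes fell and 13 rose (median -0.14), and 9 of 21 small RNA pathway genes fell and 4 rose (median -0.21), against 27.4% lower and 22.5% higher among all genes. The solute carrier rises numbered 8 without MII library 2. Zinc finger genes with Zfp symbols had 39 of 210 higher and 34 lower (median 0.03), with 21 lower without MII library 2 and 57 lower without PN3 libraries 1 and 2. Ubiquitin pathway genes had 31 of 131 higher and 41 lower, with 16 higher without MII library 1 and 19 without library 2. Ribosome biogenesis genes had 16 of 77 higher (10 without MII library 1) and 27 lower and a median of -0.04. In the fit of 13 wild-type libraries 1 solute carrier gene was called higher and 20 lower, 5 and 5 zinc finger genes, 1 and 12 ubiquitin pathway genes, and 2 and 7 ribosome biogenesis genes; 2 small RNA pathway genes were called lower. Long intergenic RNAs had 20 of 105 higher and 13 lower. By annotation 33 of 59 snoRNA genes were higher and 1 lower, against 2038 and 2547 of 9086 coding genes.

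The gene listed under the date-like symbol 7-Mar fell by 3.75, from 132 ± 4.38 to 9.15 ± 2.83, the largest fall after Mos. Xrcc1, a DNA repair scaffold, fell by 2.58. Ldhb, second in abundance in the oocyte, fell from 1213 ± 45.1 to 804 ± 129 (-0.61, or -0.40 without PN3 libraries 1 and 2), while Mphosph6 (0.58) and E330034G19Rik (0.41), among the 5 most abundant messages of the zygote, rose. Triobp rose by 1.14, with PN3 libraries 3 and 4 (70.8 and 73.2) above 1 and 2 (41.9 and 42.9). Of 14 microRNA genes tested 3 were higher and 1, Mir5133, lower (-1.74), against 22.5% and 27.4% of all genes. Mir5133 lies within Glce, and Mir1291, higher by 1.09, overlaps Snora34, so precursor and host cannot be told apart. These microRNA genes were chosen after their values were seen.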
